A study of Homo sapiens with 6 samples.

Results

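The 46 genes described here are ligands, receptors, signal transducers, targets and inhibitors of the transforming growth factor beta (TGF-beta) family, taken as a fixed list of symbols. Of these, 45 were among the 16779 genes of the count tables and 44 had enough reads to be tested, out of 12929 tested genes in all. NODAL had no row, and BMP3, with 0 counts in the controls and 7, 5 and 0 counts in the knockout libraries, was too low to test. RNA-seq read counts came from 3 libraries labelled wild-type control and 3 labelled RN7SK knockout, all given as A549, a line from a human lung adenocarcinoma. RN7SK encodes 7SK, the small nuclear RNA that keeps the elongation kinase P-TEFb inactive. No agent, time point or other allele is named in the labels, and whether the knockout is 1 clone or a pool, and whether replicates are separate cultures, is not given in the sources used here. The p-values then measure only the spread between these libraries, which may be technical.

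TGF-beta family ligands are secreted dimers that bring together a type II and a type I receptor kinase. TGF-beta and activin receptors phosphorylate SMAD2 and SMAD3, bone morphogenetic protein (BMP) receptors phosphorylate SMAD1, SMAD5 and SMAD9, and both sets enter the nucleus with SMAD4. SMAD6 and SMAD7 are inhibitory SMADs induced as feedback, and the ID genes, which encode inhibitors of basic helix-loop-helix factors, are well-known BMP targets. In lung epithelial cancer cells TGF-beta is best known for growth arrest and for epithelial-mesenchymal transition.

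The labels needed a check before the results. The tables held no row for RN7SK. CDKN2A, which A549 cells are known to lack, had 963, 1005 and 923 counts in the libraries labelled control and 0, 1 and 2 in those labelled knockout, so groups are named by their labels throughout. If the groups are not the same line, a difference between lines and an effect of the knockout cannot be told apart in any fold change given here. The epithelial keratins KRT8 and KRT18 were abundant in all 6 libraries, but EPCAM and KRT19 were near 0, with 30 and 3 counts summed over the controls and 23 and 4 over the knockouts. KRT8 rose 1.92-fold, KRT18 1.21-fold and CDH1, or E-cadherin, 5.42-fold from 29.2 ± 1.48 to 158 ± 4.38 CPM (counts scaled to library size and composition, mean ± SD, n = 3), and the sum over these 5 epithelial markers was 2793 to 2965 CPM in the controls and 4682 to 4772 CPM in the knockouts. Alveolar markers (4 genes, SFTPA1 and SFTPB at 0) summed to at most 0.108 CPM in the controls and 0.538 to 0.699 CPM in the knockouts. Summed over 6 endothelial markers the level was 109 to 114 CPM in the controls and 3.71 to 4.55 CPM in the knockouts, most of it from ESAM, with TIE1 at 0. CDH5 also fell, while KDR, VWF and PECAM1, all too low to test, had more counts in the knockouts (32, 8 and 7 summed, against 5, 0 and 2). Fibroblast markers (6 genes) summed to 3.56 to 4.55 CPM and 12.4 to 14.5 CPM, and smooth muscle markers (4 genes, DES at 0) to 3.89 to 5.29 CPM and 24.0 to 26.0 CPM, in the same order. Nearly all of the first sum was COL1A1, a gene also in the second list below, while LUM went from 22 to 7 summed counts, and nearly all of the second was ACTA2, with MYH11 and CNN1 near 0. The part of these differences in the results below was not tested. In bulk RNA, fewer cells of a type and less RNA per cell cannot be told apart.

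Of the 44 tested members, 25 rose, 16 fell and 3 did not pass in the libraries labelled knockout (edgeR quasi-likelihood test, adjusted p at most 0.05). Over all tested genes 85% passed, 42% higher and 43% lower, so passing the test does not set the members apart. The median log2 fold change of the members was 0.55, beside -0.01 over all tested genes. Of the members, 21 passed and differed at least 2-fold, 17 higher and 4 lower, which is 47.7% of those tested beside 33.6% of all tested genes (19.5% higher and 14.1% lower). The list was chosen with earlier results of these data known, so these contrasts with all tested genes are description only. Knockout and control libraries did not overlap for 43 of the 44 members, and for 85.6% of all tested genes. The plot of levels in the 6 libraries shows that libraries of a group lay close together for most members.

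**Figure D1:**
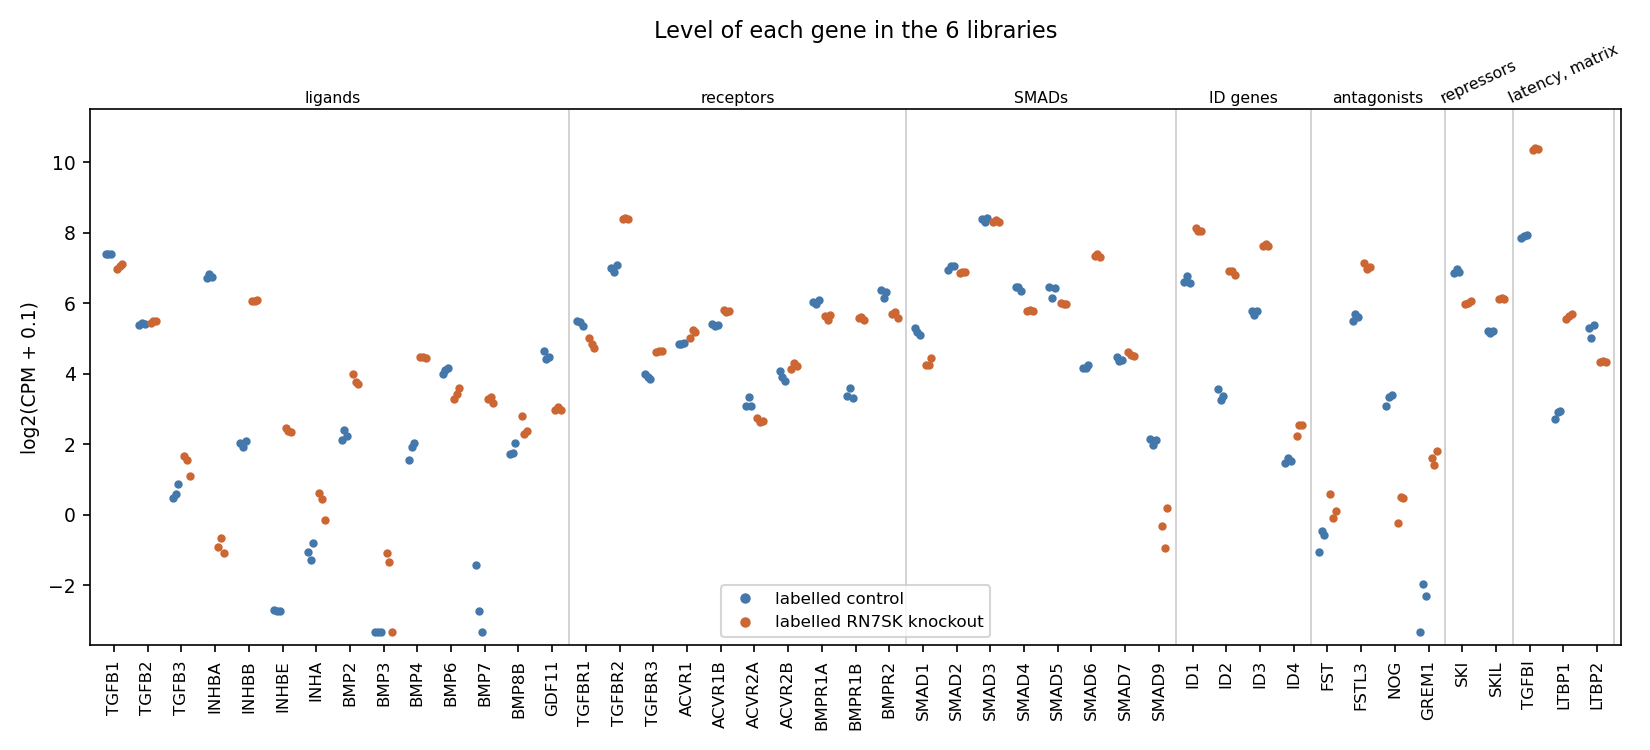
Level of each of the 45 listed genes in every library, as log2(CPM + 0.1), ordered by role. Each point is 1 library, 3 labelled control and 3 labelled RN7SK knockout; INHBA falls from the upper to the lower part of the axis while INHBB, INHBE, BMP4 and BMP7 rise, and TGFBI is the highest point set in the knockout libraries.

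One property of the tables touches several members. The gene length behind each deposited FPKM value (fragments scaled for gene length and sequencing depth) differed between the groups: of 14582 genes with a length in both, 4698 (32.2%) agreed within 1%. Among tested members 14 agreed within 1%, of which 7 rose, 6 fell and 1 did not pass. When the lengths were entered as an offset in edgeR, 85.2% of 12842 genes passed and 40 of the 44 members had the same call, with 25 higher, 14 lower and 5 not called. The 4 that changed were TGFB1, GDF11 and TGFBR1, which lost their call, and SMAD3, which gained one. Each is given with both values below and in the plot of both fold changes.

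**Figure D2:**
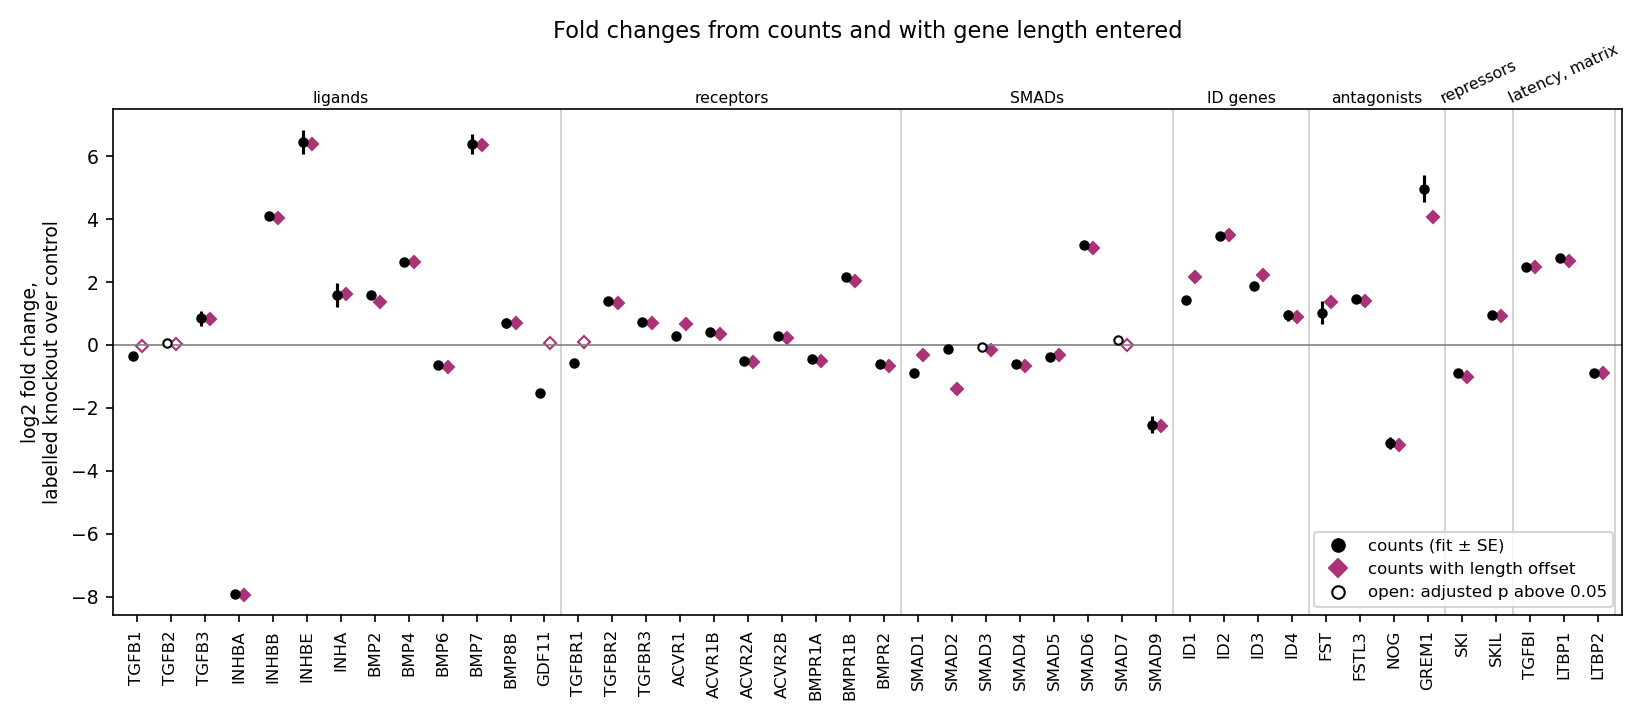
Log2 fold change of each tested member, knockout over control as labelled, from counts (black circles, fit ± SE) and with the gene lengths entered as an offset (purple diamonds); open symbols did not pass. The pairs lie apart for GDF11, TGFBR1, TGFB1, ACVR1, SMAD1, SMAD2, ID1, ID3, FST and GREM1 and close together for most others. The fitted value of INHBE rests on 3 control counts.

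Ligand genes showed the widest range, with 8 of 13 tested higher, 4 lower and 1 not called, beside 42% higher and 43% lower of all tested genes. Of the activin and inhibin subunit genes, INHBA fell while INHBB, INHBE and INHA rose. INHBA, which encodes the beta A subunit of activin A (chromosome 7, 41685114 to 41705406, GRCh38), had 1940, 2183 and 2036 counts in the 3 controls (in the order of their replicate numbers, here and below) and 8, 9 and 6 in the 3 knockouts. It fell from 108 ± 5.08 to 0.445 ± 0.0854 CPM (mean ± SD, n = 3), a log2 fold change of -7.91 ± 0.12 (fit ± SE, adjusted p = 1.17e-33). Only 0.657% of tested genes had a log2 fold change of that size or more in either direction. INHBB, which encodes the beta B subunit of activin B (chromosome 2, 120346136 to 120351803), had 74, 70 and 80 counts in the controls and 1229, 1123 and 1110 in the knockouts. It rose from 3.95 ± 0.262 to 67.1 ± 1.09 CPM (log2 fold change 4.09 ± 0.085, adjusted p = 5.80e-30). The lengths of both genes agreed within 1% between the groups, and the lowest library of the higher group was far above the highest of the other.

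The other member subunit genes, INHBE and INHA, were low. INHBE, which encodes the beta E subunit made mainly by liver, had 1 count in each control and 100, 86 and 82 in the knockouts, a summed ratio of 98.3 (95% exact counting interval 33.3 to 479). INHA, the alpha subunit that turns an activin into an inhibin, had 7, 6 and 9 counts in the controls and 27, 21 and 13 in the knockouts and rose 3.01-fold (adjusted p = 0.000334). Measured per gene length, INHBA at 13.0 ± 0.59 FPKM was the most abundant of these 4 member genes in the controls, and INHBB at 20.8 ± 0.442 FPKM was the most abundant in the knockouts. INHBC, the beta C subunit gene of the second list, was too low to test, with 2, 1 and 0 counts in the controls and 4, 13 and 5 in the knockouts.

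Because INHBA and INHBB moved in opposite directions, the 250 bases upstream of their RefSeq starts are shown (GRCh38.p14, gene strand). The INHBA window, chr7:41703091-41703340 on the minus strand, lies before a start used in the promoter table that is inside the gene span given above, so it is not upstream of the whole gene. INHBB is at chr2:120345886-120346135 on the plus strand, directly before its gene. Capitals mark GGCGCC, a GC-rich element bound by BMP SMADs.
INHBA: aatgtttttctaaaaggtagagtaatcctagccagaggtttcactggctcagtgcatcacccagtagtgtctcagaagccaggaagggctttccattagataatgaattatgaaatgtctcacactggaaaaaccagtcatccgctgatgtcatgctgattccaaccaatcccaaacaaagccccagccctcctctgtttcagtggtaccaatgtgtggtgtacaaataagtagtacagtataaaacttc
INHBB: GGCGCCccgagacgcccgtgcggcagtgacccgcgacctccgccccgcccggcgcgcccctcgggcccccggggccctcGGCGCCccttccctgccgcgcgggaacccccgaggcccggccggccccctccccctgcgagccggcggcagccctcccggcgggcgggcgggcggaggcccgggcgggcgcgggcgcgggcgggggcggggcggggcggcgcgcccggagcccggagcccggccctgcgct
G and C made up 42.8% of the INHBA window and 89.6% of the INHBB window. GGCGCC, which reads the same on both strands, occurred at 2 places in the INHBB window and in 16.4% of 34788 distinct windows of this length. It was in 15 of the 40 members with a window. Of these, ACVR1, ACVR1B, BMP4, FSTL3, GREM1, INHBB, SKIL and TGFBI rose. BMPR2, LTBP2, SMAD1, SMAD2, SMAD4 and TGFBR1 fell, and SMAD3 did not pass. A link between the element and a change in level was not tested. The last 18 bases of the INHBA window are annotated as exon by GENCODE. Neither window held the SMAD sequences CAGAC (or GTCTG) or GTCTAGAC.

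The BMP ligands among the members mostly rose. BMP4, which patterns lung epithelium, had 53, 70 and 76 counts in the controls and 409, 373 and 351 in the knockouts, and rose from 3.50 ± 0.573 to 21.9 ± 0.351 CPM (log2 fold change 2.64 ± 0.118, adjusted p = 2.19e-20). BMP2, its close relative, had 78, 99 and 88 counts and then 293, 226 and 213, a rise of 3.03-fold (adjusted p = 1.08e-13). BMP7, known from kidney development, had 5, 1 and 0 counts in the controls and 180, 168 and 144 in the knockouts. Its summed ratio was 90.2 (95% counting interval 41.1 to 247), and the fitted log2 fold change of 6.40 became 8.16 without control replicate 1, which held 5 of the 6 control counts. In all 3 genes each knockout library was above each control library. The groups did not overlap for 85.6% of all tested genes, so this does not set these genes apart. BMP6, a ligand that also controls hepcidin, went the other way, from 16.8 ± 1.02 to 10.7 ± 1.18 CPM (log2 fold change -0.65, adjusted p = 5.35e-07). BMP8B rose 1.62-fold, although reads of BMP8B and its near-identical neighbour BMP8A may have been split by the counting. BMP5, a gene of the second list too low to test, had 11, 11 and 8 counts in the controls. In the knockouts BMP5 had 0, 1 and 0 counts. BMP3 was 4.40-fold higher when the controls were set to the floor of 3 counts over the group. Its 95% counting interval began at 3.06, and knockout replicate 3 was also at 0.

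Of the 3 TGF-beta ligand genes TGFB1 fell, TGFB3 rose and TGFB2 did not pass. TGFB1, the main isoform of epithelia and blood cells, had 3095, 3204 and 3245 counts in the controls and 2330, 2212 and 2242 in the knockouts (log2 fold change -0.35 ± 0.046, adjusted p = 2.11e-08). The length behind its FPKM was 2744 bases for the controls and 2103 for the knockouts, and with the length offset its log2 fold change was -0.03 (edgeR adjusted p = 0.604). In FPKM it was 59.7 ± 0.316 and 62.2 ± 3.26. TGFB2 did not pass, with 42.4 ± 1.02 and 44.4 ± 0.639 CPM (adjusted p = 0.32), although it passed with upper quartile scaling (log2 fold change 0.15, edgeR adjusted p = 0.0240). TGFB3 rose 1.80-fold from 1.48 ± 0.221 CPM. GDF11, a ligand close to myostatin, fell from 458, 408 and 426 counts to 145, 139 and 127 (log2 fold change -1.51, adjusted p = 5.34e-16). The lengths were 4933 bases for the controls and 1602 for the knockouts; with the offset its log2 fold change was 0.05 (edgeR adjusted p = 0.644), and in FPKM it was 4.50 ± 0.359 and 4.94 ± 0.164.

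Of the 10 receptor genes 6 rose and 4 fell, beside 42% and 43% of all tested genes. TGFBR2, the type II receptor that binds TGF-beta (chromosome 3, 30606356 to 30694142), had 2345, 2247 and 2590 counts in the controls and 6162, 5701 and 5401 in the knockouts. It rose from 127 ± 8.87 to 335 ± 5.13 CPM (log2 fold change 1.40 ± 0.047, adjusted p = 6.97e-24) at an identical length of 6673 bases. Its type I partner TGFBR1 had 840, 846 and 782 counts and then 601, 476 and 432 (log2 fold change -0.58, adjusted p = 5.27e-09), but with the length offset the log2 fold change was 0.08 (edgeR adjusted p = 0.278), its lengths being 10054 and 6121 bases. TGFBR3, or betaglycan, which presents ligand to the type II receptor, rose 1.66-fold.

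Among the genes named for BMP receptors, BMPR1B rose while BMPR1A and BMPR2 fell. BMPR1B, a type I receptor, had 191, 228 and 188 counts in the controls and 887, 819 and 747 in the knockouts, a rise of 4.44-fold (adjusted p = 8.30e-23). BMPR1A, the more widely expressed type I receptor, went from 65.5 ± 3.19 to 48.4 ± 2.48 CPM and the type II receptor BMPR2 from 78.0 ± 6.22 to 50.7 ± 3.28 CPM (log2 fold changes -0.44 and -0.62). Per length, BMPR1A at 9.56 ± 0.461 FPKM was above BMPR1B at 1.63 ± 0.168 FPKM in the controls, whereas in the knockouts BMPR1A at 7.17 ± 0.399 FPKM and BMPR1B at 7.16 ± 0.188 FPKM lay within each other's spread. Among the genes named for activin receptors, ACVR1, ACVR1B and ACVR2B rose 1.23-fold, 1.32-fold and 1.23-fold and ACVR2A had a log2 fold change of -0.50. The log2 fold change of ACVR1 was 0.30 from counts and 0.65 with the length offset, its lengths being 5214 and 3913 bases. The call of ACVR2B was lost on log2(FPKM + 0.1), where limma gave a log2 fold change of 0.27 (adjusted p = 0.0623).

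Of the 8 SMAD genes 1 rose, 5 fell and 2 did not pass, while 42% of all tested genes rose and 43% fell. SMAD6, the inhibitory SMAD of the BMP branch (chromosome 15, 66702236 to 66782849), had 327, 343 and 358 counts in the controls and 2987, 2823 and 2595 in the knockouts. It rose 8.99-fold from 18.1 ± 0.542 to 163 ± 4.97 CPM (log2 fold change 3.17 ± 0.059, adjusted p = 2.19e-31). SMAD7, the inhibitory SMAD that acts on both branches, had 406, 392 and 397 counts and then 450, 384 and 368, and did not pass (log2 fold change 0.14 ± 0.077, adjusted p = 0.0795). It passed with scaling by library size alone (log2 fold change 0.17, edgeR adjusted p = 0.0413) and by upper quartile (0.23, edgeR adjusted p = 0.00668), and with the length offset its log2 fold change was -0.02.

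The BMP-branch signal transducers were lower. SMAD1 had 728, 689 and 650 counts in the controls and 349, 318 and 356 in the knockouts (log2 fold change -0.88, adjusted p = 2.17e-12), while the offset, for lengths of 4449 and 2900 bases, put its log2 fold change at -0.32. SMAD5 had 1637, 1360 and 1651 counts and then 1202, 1050 and 1022 (log2 fold change -0.37, adjusted p = 6.23e-06). SMAD9, the least abundant, had 81, 74 and 82 counts and then 13, 7 and 17 (log2 fold change -2.53 ± 0.259, adjusted p = 8.34e-11). The shared partner SMAD4, a tumour suppressor, fell from 1612, 1666 and 1566 counts to 1028, 942 and 895 (log2 fold change -0.62, adjusted p = 1.54e-12).

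SMAD3, which carries TGF-beta and activin signals to DNA, was the most abundant SMAD per length in both groups, at 45.8 ± 1.8 and 43.5 ± 0.783 FPKM. It had 6207, 6079 and 6581 counts in the controls and 5873, 5460 and 5088 in the knockouts, and was the 1 tested member whose scaled libraries overlapped (log2 fold change -0.06, adjusted p = 0.165). It passed without control replicate 2 (log2 fold change -0.10, edgeR adjusted p = 0.00697) and with the length offset (-0.16, edgeR adjusted p = 0.000887). SMAD2, its partner, had 2264, 2517 and 2523 counts and then 2168, 1989 and 1900 (log2 fold change -0.13, adjusted p = 0.0116). That call was lost with upper quartile scaling (edgeR adjusted p = 0.39) and when genes averaging under 10 CPM were dropped (edgeR adjusted p = 0.367). Its lengths were 17883 bases for the controls and 41648 for the knockouts, and with the offset its log2 fold change was -1.41.

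All 4 ID genes rose, beside 42% of all tested genes, and all 4 did so also with the length offset and on log2(FPKM + 0.1). ID2 (chromosome 2, 8682056 to 8684461) had 217, 180 and 197 counts in the controls and 2225, 2003 and 1791 in the knockouts. It rose 11.1-fold, from 10.5 ± 1.16 to 116 ± 5.49 CPM (log2 fold change 3.48 ± 0.072, adjusted p = 4.65e-30). ID1 (chromosome 20, 31605289 to 31606510) had 1788, 2102 and 1820 counts and then 5172, 4447 and 4260, a rise of 2.67-fold (adjusted p = 9.39e-23). Every knockout library of these genes was above every control library, but the groups also did not overlap for 85.6% of all tested genes. ID3 (chromosome 1, 23557926 to 23559501) had 1020, 976 and 1057 counts and then 3623, 3394 and 3220, a rise of 3.69-fold (adjusted p = 6.04e-27). ID4 had 49, 56 and 53 counts and then 85, 97 and 93, a rise of 1.92-fold (adjusted p = 7.85e-06). The change of ID1 was larger with the length offset, at a log2 fold change of 2.15 against 1.42, its lengths being 1696 and 983 bases. Per length, ID1 at 271 ± 7.71 FPKM was above ID3 at 207 ± 4.06, ID2 at 88.9 ± 3.7 and ID4 at 1.37 ± 0.178 FPKM in the knockouts. In the controls the order was ID1 at 57.7 ± 4.68, ID3 at 42.3 ± 1.89, ID2 at 7.48 ± 0.85 and ID4 at 0.699 ± 0.0344 FPKM, with no neighbours within their spread.

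SMAD6 and ID1 are textbook targets of BMP signalling that rose together, so the 250 bases upstream of their RefSeq starts are shown in the same way. ID1 is at chr20:31605039-31605288 (plus strand) and SMAD6 at chr15:66701986-66702235 (plus strand), of which the last 6 and 8 bases are annotated as exon by GENCODE. Capitals mark the palindrome GTCTAGAC, to which SMAD3 and SMAD4 bind, searched together with GGCGCC and with CAGAC, the short SMAD box, on both strands.
ID1: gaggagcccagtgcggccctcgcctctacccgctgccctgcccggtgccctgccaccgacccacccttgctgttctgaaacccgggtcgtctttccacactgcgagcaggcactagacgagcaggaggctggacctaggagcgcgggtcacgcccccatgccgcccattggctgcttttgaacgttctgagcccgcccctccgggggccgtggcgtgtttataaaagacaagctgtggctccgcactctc
SMAD6: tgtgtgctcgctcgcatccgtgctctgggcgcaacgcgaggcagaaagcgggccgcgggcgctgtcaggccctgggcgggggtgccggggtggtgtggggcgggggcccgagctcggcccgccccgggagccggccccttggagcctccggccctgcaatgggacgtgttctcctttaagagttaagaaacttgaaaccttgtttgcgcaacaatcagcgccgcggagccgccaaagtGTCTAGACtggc
The palindrome began 12 bases upstream of the SMAD6 start. It occurred in 62 of 34788 distinct windows (0.178%), and of the 40 members with a window SMAD6 was the 1 that held it. The ID1 and ID2 windows held none of the 3 motifs, and GGCGCC was in 15 of the 40 members. CAGAC or its reverse complement GTCTG was in the ID3 window, 147 bases upstream, in 18 of the 40 members and in 38.0% of all windows. GENCODE annotates 202 of the 250 bases of the ID2 window and all of the ID3 window as exon, so that these start sites differ between the annotations. The palindrome does not contain CAGAC or GTCTG. A match is a run of letters and was not shown to be bound.

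Secreted inhibitors changed in both directions. NOG, or noggin, which binds BMPs and blocks their receptors (chromosome 17, 56593699 to 56595611), had 156, 193 and 200 counts in the controls and 14, 22 and 21 in the knockouts. It fell from 9.66 ± 1.08 to 1.12 ± 0.318 CPM (log2 fold change -3.12 ± 0.192, adjusted p = 1.65e-16). GREM1, or gremlin, another BMP antagonist, had 0, 3 and 2 counts and then 55, 43 and 55, a summed ratio of 33.7 (95% counting interval 14.1 to 105). Its fitted log2 fold change of 4.97 became 5.62 without control replicate 2 and 4.07 with the length offset, its lengths being 8084 and 14794 bases. FSTL3, which binds activins and myostatin, had 837, 980 and 923 counts in the controls and 2593, 2102 and 2117 in the knockouts, a rise of 2.73-fold (adjusted p = 3.83e-22). FST, or follistatin, the better-known activin trap, stayed near the limit of detection at 7, 12 and 11 counts and then 26, 14 and 16. FST rose 2.04-fold (adjusted p = 0.0106), a call lost without control replicate 1 (edgeR adjusted p = 0.0574), without knockout replicate 1 (0.0987) and in DESeq2 (adjusted p = 0.0632).

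The nuclear repressors SKI and SKIL, which hold SMAD complexes inactive on DNA, moved apart. SKI had 2141, 2398 and 2263 counts in the controls and 1159, 1073 and 1086 in the knockouts (log2 fold change -0.90 ± 0.052, adjusted p = 3.66e-17). SKIL, itself a TGF-beta target, had 690, 675 and 701 counts and then 1298, 1180 and 1130 (log2 fold change 0.94 ± 0.058, adjusted p = 1.47e-16).

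The matrix gene TGFBI and the latency gene LTBP1 rose. TGFBI, a secreted matrix protein named for its induction by TGF-beta (chromosome 5, 136028988 to 136063818), had 4236, 4558 and 4716 counts in the controls and 24022, 22737 and 21553 in the knockouts. It went from 238 ± 8.87 to 1325 ± 33.4 CPM (log2 fold change 2.48 ± 0.042, adjusted p = 2.92e-32). Its per-length level was the highest of all members in both groups, at 82.6 ± 2.82 FPKM in the controls and 485 ± 12.2 FPKM in the knockouts. LTBP1, which tethers latent TGF-beta to the matrix, had 119, 143 and 145 counts and then 868, 833 and 837, a rise of 6.87-fold (adjusted p = 3.04e-25). LTBP2, a relative that does not bind latent TGF-beta, had 723, 619 and 793 counts and then 376, 342 and 326 (log2 fold change -0.89, adjusted p = 6.78e-12).

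**Figure D3:**
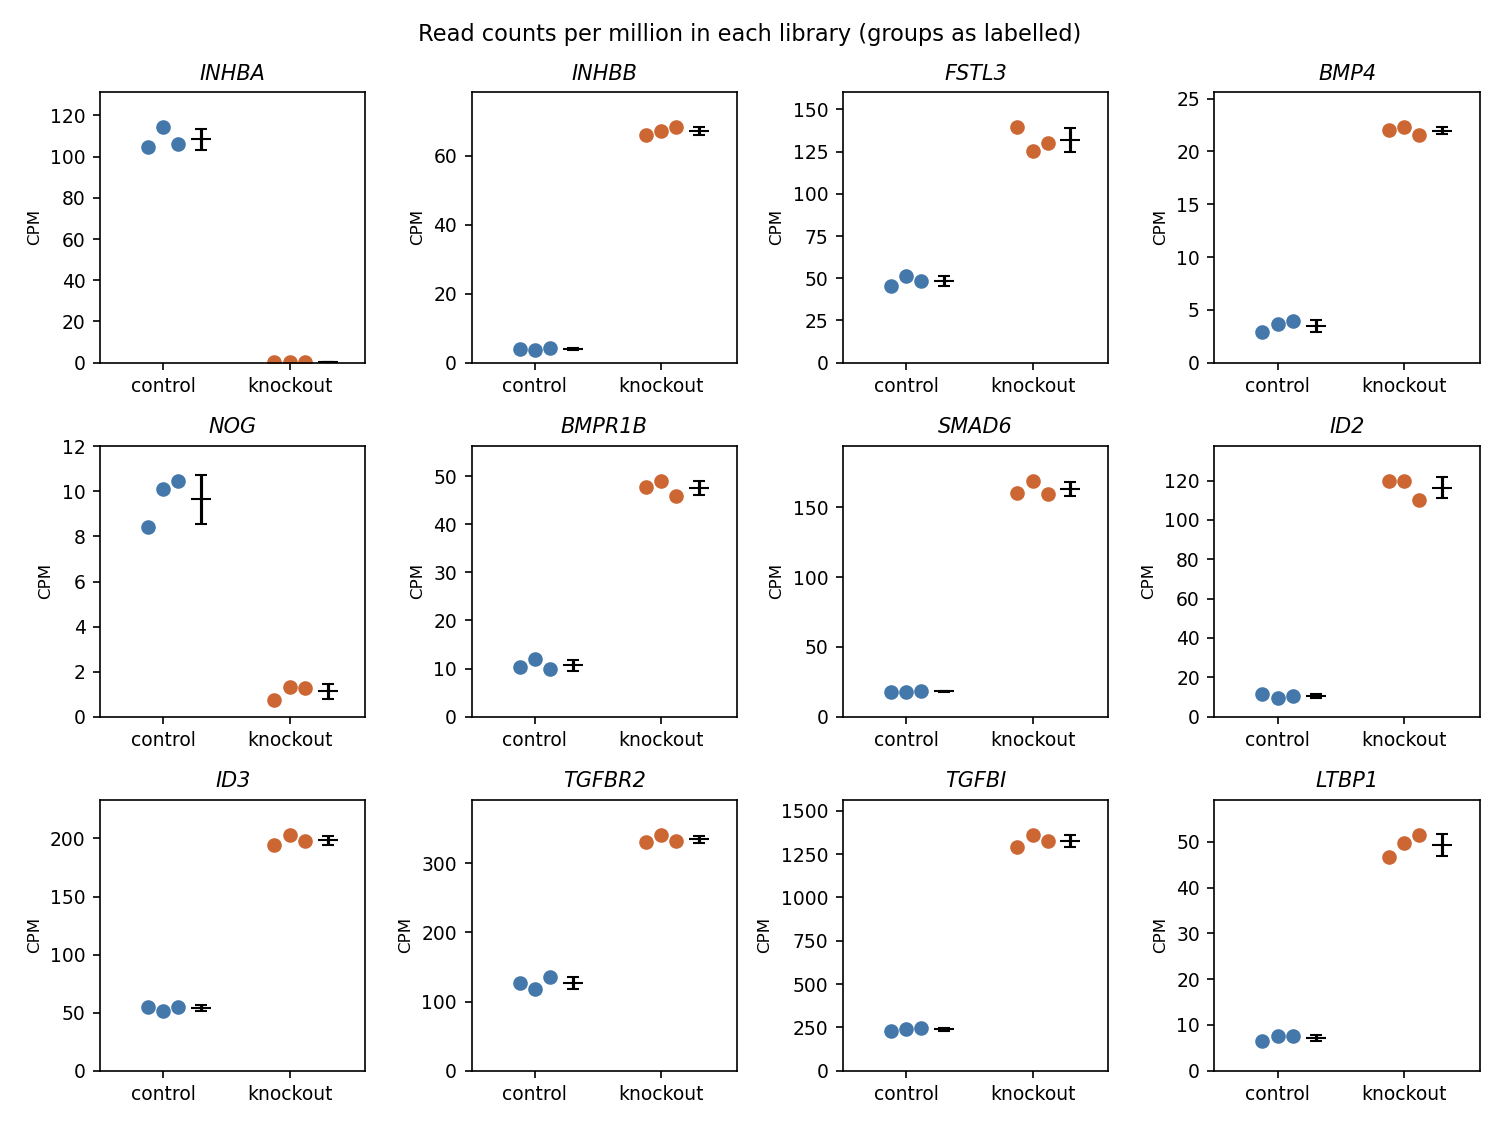
CPM of 12 members in each library, on linear axes that start at 0. Coloured points are the 3 libraries of each group as labelled, black bars the mean ± SD. INHBA and NOG are higher in the controls, and the other 10 genes are higher in every knockout library than in any control library. The groups did not overlap for 85.6% of all tested genes.

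A second list held 94 other genes of the pathway, of which 84 had rows and 64 were tested. Of these, 33 rose, 25 fell and 6 did not pass, beside the 85% of all tested genes that passed, and their median log2 fold change was 0.16. With the length offset 30 of 63 were higher and 25 lower. The largest rises among genes with at least 5 CPM in 1 group were those of ATOH8, BAMBI, FSTL1 and MSX2. With the length offset FSTL1, at a log2 fold change of 2.23, came after BMP1 at 2.46 and PMEPA1 at 2.37. ATOH8, a transcription factor induced by BMPs, went from 0.422 ± 0.187 to 22.4 ± 1.85 CPM, and BAMBI, a decoy receptor, from 4.48 ± 0.262 to 46.3 ± 1.79 CPM. The BMP target MSX2 rose 5.68-fold, and FSTL1, a secreted follistatin-like protein, rose 6.61-fold. MSX1, a relative of MSX2 also listed as a target, fell (log2 fold change -0.73, edgeR adjusted p = 2.06e-05). Of the 19 tested target genes of this list 10 rose and 6 fell, beside 42% and 43% of all tested genes. With the length offset 9 of them were higher and 8 lower.

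The largest falls by the same rule were those of CDKN2B, ENG, THBS1 and SNAI1. CDKN2B, a cell cycle inhibitor induced by TGF-beta, had 695 counts over the controls and 1 over the knockouts. Its summed ratio of knockout to control was 0.00158 (95% counting interval 4.0e-05 to 0.00885). It lies beside CDKN2A, which had 2891 and 3 summed counts in the same order. For CDKN2B too, a difference between lines and an effect of the knockout cannot be told apart. ENG, or endoglin, a coreceptor best known from endothelium, fell from 54.6 ± 3.56 to 0.235 ± 0.108 CPM, and of the endothelial markers given above ESAM and CDH5 were lower in the knockouts while KDR, VWF and PECAM1 were not; their part was not tested. THBS1, which can activate latent TGF-beta, fell from 395 ± 42.7 to 40.8 ± 1.71 CPM. SNAI1, a repressor of E-cadherin, fell from 9.85 ± 1.17 to 1.05 ± 0.33 CPM.

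**Figure D4:**
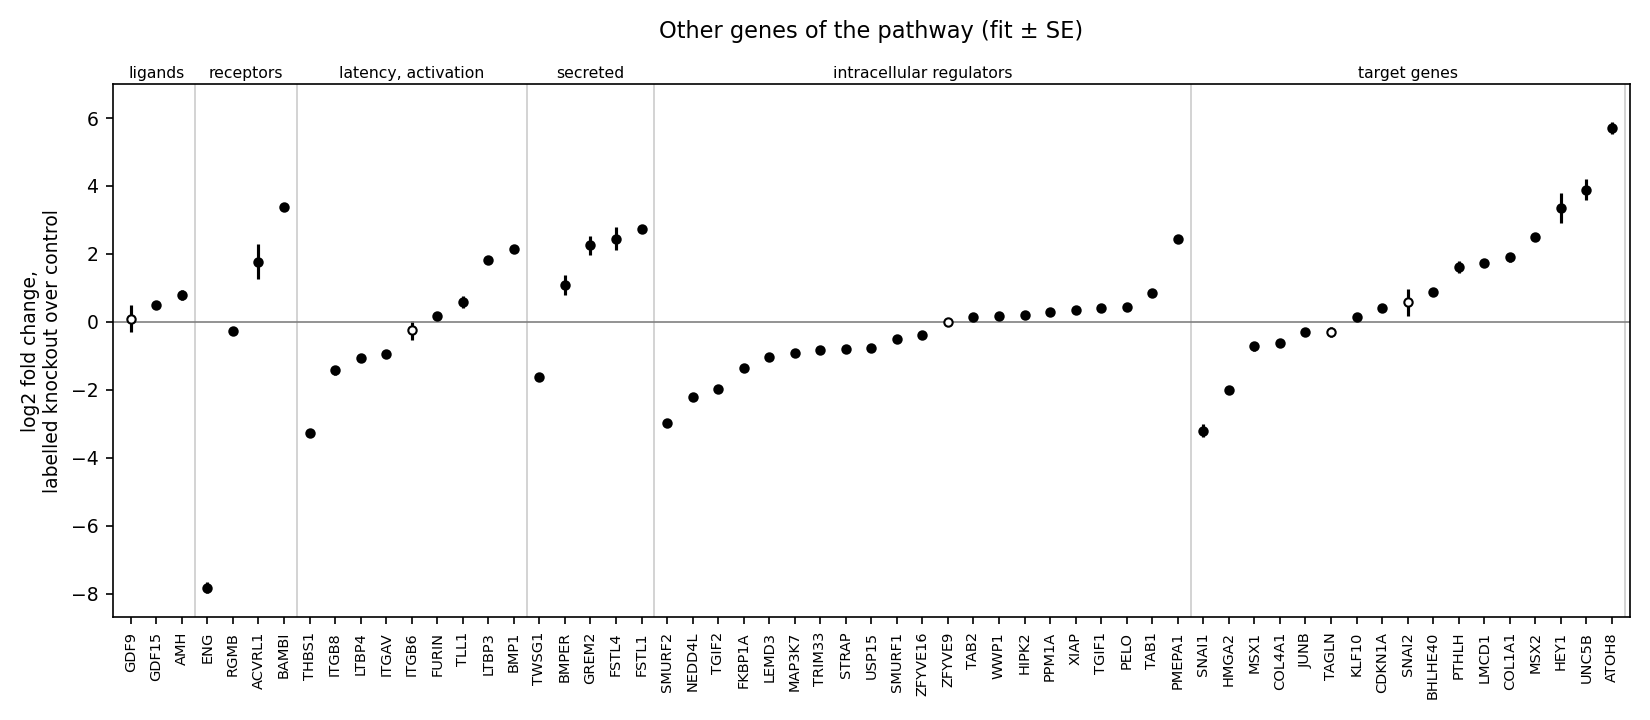
Log2 fold change (fit ± SE), knockout over control as labelled, of the tested genes of the second list, sorted within each role; open points did not pass. BGN, CDKN2B, GDF6 and ACVR1C are left out, as 1 of their groups had 3 or fewer counts, and 1 further gene is not shown; ENG is the lowest point and ATOH8 the highest.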

How the data were processed

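RNA-seq of total RNA from 6 libraries used an mRNA-Seq library kit (protocols in the labels). Trimmomatic 0.36, FastQC 0.11.5, HISAT2 2.2.1.0 and GRCh38 are named in the submitters' processing notes with no role or order; for the counter, annotation and strand setting the sources used here give nothing. In GENCODE, 13 of the 46 members share exon bases with a gene on the other strand (TGFB1, TGFB3, BMP8B, GDF11, NODAL, ACVR2A, SMAD1, SMAD3, SMAD5, ID2, GREM1, LTBP1 and LTBP2), whose reads cannot be told apart without strand. The authors deposited whole-number read counts per gene symbol and, as a second scale, FPKM values. Total counts were 16018260 to 19357144 per library. Gene lengths were recovered from the deposited counts and FPKM; they came out whole within 0.02 bases.

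Counts were fitted over all genes with edgeR 4.0.16 in R 4.3.3 (filterByExpr, TMM scaling, glmQLFit robust, glmQLFTest, two-sided, Benjamini-Hochberg adjustment, threshold 0.05), and the code was tested on simulated data. Counting intervals are exact and cover counting error only. Every pair of libraries of a group differed by more than sampling noise (chi-square over degrees of freedom 1.73 to 7.57). Alternatives were other scalings, filters and thresholds, DESeq2 1.42.0, limma 3.58.1, lengths, a replicate block and leaving out each library. Promoter windows are from RefSeq (GRCh38.p14), with 40 of 46 members matched. Members and lists were chosen with earlier results of these data known. Values in all libraries were planned for members past the threshold with at least 5 CPM in 1 group and 2-fold, and for SMADs; the 4 largest rises and falls of the second list were named by the same limit. Others were named after their values were seen. 1 gene of the second list and 1 marker list are counted in the fits but not reported here.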

Additional observations from a re-analysis of the deposited data

How the results depend on the processing

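Among genes with lengths within 1%, which left fewer genes, 3436 of 4042 were called (1710 higher, 1726 lower), with 13 of 14 members (7 and 6) and 24 of 27 genes of the second list (13 and 11). With a 1.5-fold threshold (glmTreat) 5967 genes were called (3159 higher, 2808 lower), with 26 members (7 lower) and 20 genes of the second list higher. Leaving out each library gave 40 to 42 called members of 44, beside 10697 to 11132 called genes of 13032 to 13087 tested. The member median was then 0.45 (without knockout replicate 1) to 0.57. The median was 0.64 with upper quartile scaling, 0.31 over members averaging at least 10 CPM, 0.70 on log2(FPKM + 0.1), 0.27 on log2(FPKM + 1), 0.68 with the length offset and 0.23 at lengths within 1%. In the same order, the median over all tested genes kept in each setting was 0.08, -0.01, 0.08, 0.06, 0.0004 and 0.01. On log2(FPKM + 0.1), log2(FPKM + 1) and the offset, GDF11 had log2 fold changes of 0.13, 0.11 and 0.0498 and TGFBR1 of 0.16, 0.13 and 0.0824; TGFB1 had 0.058 and 0.0572 on the FPKM scales. None of these passed, and their lengths enter there. The replicate block gave 10910 genes and 41 members and changed no member's call; same-numbered libraries' deviations correlated at 0.02, -0.03 and -0.01, so the numbers do not pair them, and not every library correlated best with its own number. Counts of 3 or fewer in a group limit INHBE, GDF6, ACVR1C, CDKN2B and BGN.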

Other observations

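Further genes of the second list, chosen after their values were seen, gave these levels. PMEPA1, a TGF-beta-induced inhibitor of SMAD2 and SMAD3 activation, rose 5.38-fold from 69.6 ± 2.86 to 374 ± 3.49 CPM (mean ± SD, n = 3). SMURF2, a ubiquitin ligase for SMADs and their receptors, fell from 311 ± 11.4 to 39.8 ± 2.19 CPM. LTBP3, which binds latent TGF-beta, rose 3.51-fold, and BMP1, a protease that cleaves chordin and procollagens, rose 4.41-fold. In each of these 4 genes the groups did not overlap, as in 85.6% of all tested genes, so this does not set them apart.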
